A study of Mus musculus with 16 samples.

Results

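Levels of 10 genes of smooth muscle cells, pericytes and fibroblasts were followed in mouse pups, in arrays of RNA from type II cells of the alveolar epithelium (AT2 cells). The genes were the contractile genes Acta2, Tagln, Myh11, Cnn1 and Des, the platelet-derived growth factor (PDGF) receptor genes Pdgfrb and Pdgfra, the elastic fibre genes Eln and Mfap4, and the methyltransferase gene Inmt. They were taken by symbol, as 10 of the 20725 genes with a named array feature, and had 37 of the 31439 named features. The feature with the highest mean over the 16 arrays stood for each gene.

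The arrays were single-colour Agilent arrays, 1 per sample, with 2 samples of Fgf10+/- pups in hyperoxia, 4 of Fgf10+/- pups in normoxia, 6 of wild-type pups in hyperoxia and 4 of wild-type pups in normoxia. All pups were at postnatal day 3. Hyperoxia meant 85% oxygen in a chamber from day 0 to day 3, and the normoxia pups were kept under standard conditions. Fgf10 encodes a growth factor that the lung mesenchyme makes and the epithelium receives, and Fgf10+/- pups carry 1 altered copy in every cell. The sources used here do not give the allele, the way the AT2 cells were isolated, or whether pups were pooled. The group sizes follow the sample titles, while the series text gives 4 per group. Nothing states that the samples of a group came from separate animals, so p-values measure only the spread between these samples, which may be technical.

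All 12 genes of an AT2 list lay above the median of all values on every array, the lowest value being 6.11 for Lpcat1. On the log2 scale Sftpb, the surfactant protein B gene, lay between 13.19 and 14.55 over the 16 arrays, and Abca3, the surfactant lipid transporter of AT2 cells, between 11.59 and 13.27. Sftpc, the surfactant protein C gene, lay between 15.95 and 15.98, and its median over the arrays was the highest value in the whole table, so its level there has only a lower bound and its evenness between arrays says nothing. The mean of 12 AT2 genes ranged over 10.40 to 11.53 in Fgf10+/- hyperoxia, 10.87 to 11.67 in Fgf10+/- normoxia, 10.70 to 11.68 in wild-type hyperoxia and 11.38 to 11.80 in wild-type normoxia. Fgf10 itself was dim and did not separate the genotypes, with 4.76 and 5.38 in Fgf10+/- hyperoxia against 4.71 to 5.45 in wild-type hyperoxia, and 4.02 to 4.77 in Fgf10+/- normoxia against 4.27 to 5.89 in wild-type normoxia. A deposited value is a log2 intensity of 1 feature, so values are compared between arrays and never between genes. The median of all values was 4.34.

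Smooth muscle cells surround the airways and vessels of the lung and contract through actin, myosin heavy chain and the proteins that bind them. Serum response factor, with its partner myocardin, drives many contractile genes by binding CArG boxes, short A and T rich elements near the gene start. Pericytes lie along capillaries and need PDGF receptor beta, while PDGF receptor alpha marks the fibroblasts from which alveolar myofibroblasts arise in the newborn lung. Those myofibroblasts deposit elastin, on which the septa that divide the newborn air spaces form. AT2 cells are the epithelial cells that make surfactant.

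The start-proximal sequence of Acta2 is shown because it holds letters of the CArG form described above, and those of Cnn1 and Inmt as measured genes whose windows hold none. RefSeq's promoter table for the GRCm38.p6 build held 5 of the 10 genes. Each line gives bases -100 to -1 before the gene start on the strand given, 5′ to 3′, and capitals mark CArG boxes.
Acta2, chr19:34255374-34255473, minus strand: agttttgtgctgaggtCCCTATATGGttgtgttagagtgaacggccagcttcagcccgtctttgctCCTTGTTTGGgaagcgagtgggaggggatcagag
Cnn1, chr9:22099153-22099252, plus strand: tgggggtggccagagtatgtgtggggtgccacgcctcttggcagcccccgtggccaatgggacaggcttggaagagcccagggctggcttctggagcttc
Inmt, chr6:55174991-55175090, minus strand: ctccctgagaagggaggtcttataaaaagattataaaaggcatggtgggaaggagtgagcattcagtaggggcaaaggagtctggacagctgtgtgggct
A box was counted where CC and GG flank 6 bases of which at most 1 is C or G, a form that reads the same on both strands, in the 250 bases before the start. The Acta2 window held 2 boxes, at -84 to -75 and -34 to -25, and the windows of Cnn1, Inmt, Des and Pdgfra held 0. Of 32851 promoters in the table, 8.59% held at least 1 box and 0.67% held 2 or more. A match describes the letters only.

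Wild-type normoxia replicate 1 stood apart on these genes. The wild-type results of the 10 genes and the wild-type medians of the marker lists are therefore given with and without it. Some counts for the lists are given with all samples only. On this array Acta2 was 13.05 against 8.91 to 9.50 in the other 3 wild-type normoxia arrays, and Mfap4 was 14.73 against 10.36 to 11.10. Its value was above those of the other 3 for 10 of the 10 genes (25.1% of all genes), and the highest of all 16 arrays for 8 (7.93% of all genes). The gap to the mean of the other 3 ranged over 1.31 for Des to 3.94 for Mfap4, with a median of 2.43 against 0.01 over all genes. The same array was also the highest in its group for other mesenchymal markers, at 8.82 for the mean of 12 other smooth muscle genes (at most 7.24 in the other 3), 7.11 for 10 pericyte genes (at most 5.73) and 9.17 for 16 fibroblast genes (at most 7.50). It was highest as well for lists of other cells, at 7.66 for 8 cardiac muscle genes (at most 6.30 in the other 3), 10.73 for the erythroid genes (at most 10.02) and 4.64 for the skeletal muscle genes (at most 4.25). Its AT2 mean was 11.39 and its endothelial mean 8.26, both within the range of its group. The array was identified by its level on the genes described here, and p-values without it take no account of that choice. Fgf10+/- normoxia replicate 1, which was kept, was the highest of its own group for all but Myh11, Eln and Inmt. On it Mfap4 was 12.33 against 9.17 to 10.04 in the other Fgf10+/- normoxia arrays, and Acta2 10.01 against 7.78 to 8.83.

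**Figure D1:**
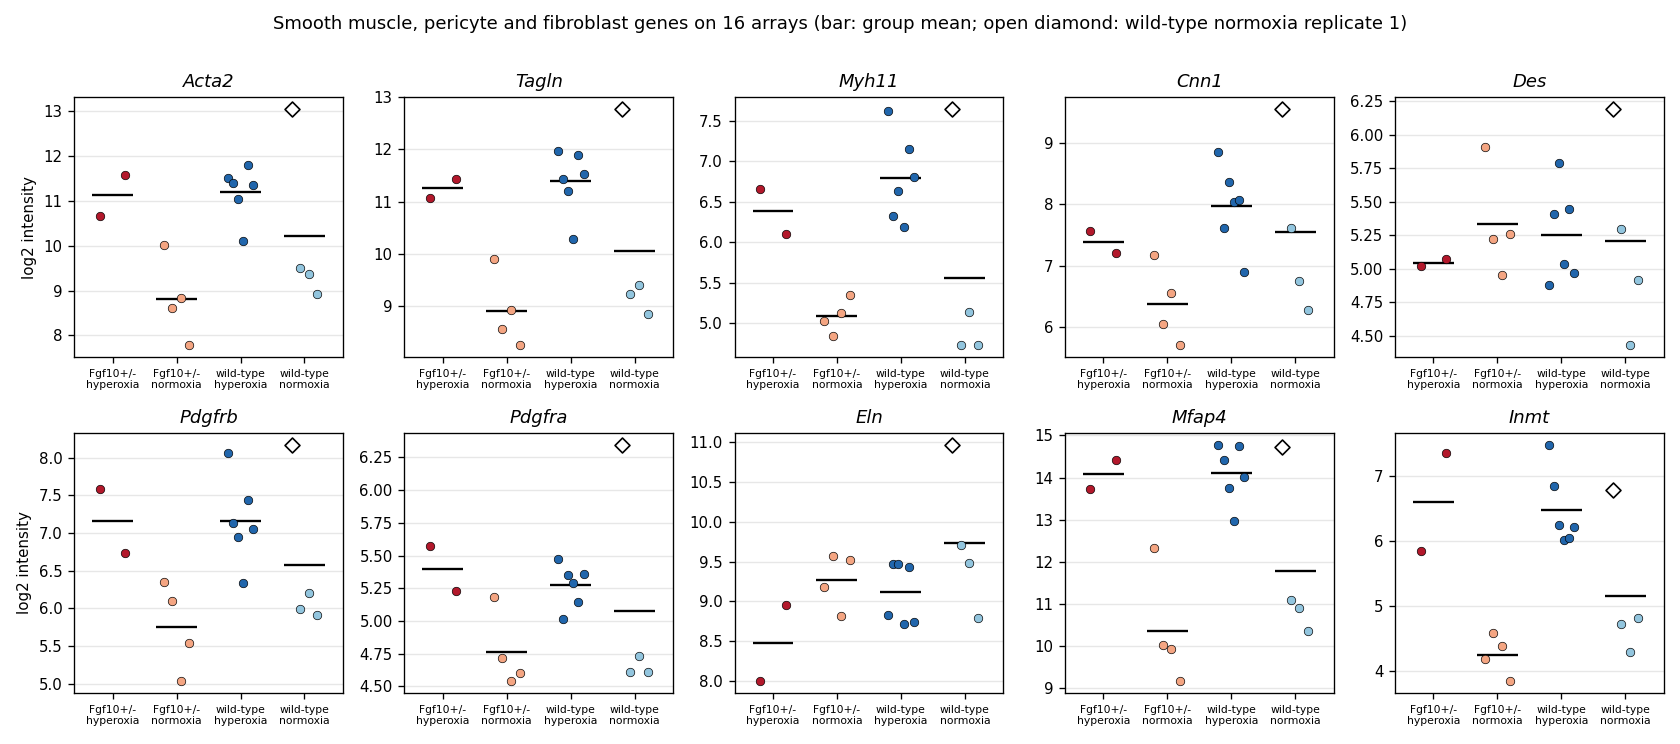
Log2 intensity (y axis, 1 panel per gene) of the 10 genes on each of the 16 arrays, in 4 groups along the x axis, with a bar at each group mean and an open diamond for wild-type normoxia replicate 1. Leaving that diamond aside, the hyperoxia arrays lie above all normoxia arrays for Acta2, Tagln, Myh11, Mfap4 and Inmt, while Cnn1, Des, Pdgfrb, Pdgfra and Eln overlap.

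In hyperoxia, 8 of the 10 genes were higher on both Fgf10+/- arrays than on all 4 Fgf10+/- normoxia arrays, all but Des and Eln. Over all genes 12.4% were separated in that direction by these 2 and 4 arrays. In wild type, 7 of the 10 genes were higher on all 6 hyperoxia arrays than on the 3 normoxia arrays other than replicate 1 (4.84% of all genes), and 0 were when replicate 1 was counted (3.13%). Taking both genotypes together, 5 of the 10 genes were higher on all 8 hyperoxia arrays than on the 7 normoxia arrays other than that one (2.51% of all genes), and 0 than on all 8 (1.84%). That array was set aside for its level on these genes, so the shares are no fair yardstick for the counts without it. The 10 genes were also chosen with earlier results of these data known, and the shares here and below take no account of that. With all samples, centring each array on its median would add 0.11 to every wild-type change and 0.10 to every Fgf10+/- change. In bulk RNA, a change in the number of cells of a type and a change in RNA per cell cannot be told apart.

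Acta2, which encodes smooth muscle alpha-actin, had 10.67 and 11.58 in Fgf10+/- hyperoxia, against 10.01, 8.62, 8.83 and 7.78 in Fgf10+/- normoxia. In wild-type hyperoxia it ran over 10.10, 11.38 and 11.80 (lowest, median and highest of 6), against 13.05, 9.50, 9.37 and 8.91 in wild-type normoxia. All 8 hyperoxia arrays were thus above 10.01, the highest of the 7 normoxia arrays other than wild-type replicate 1, which alone exceeded every hyperoxia array. The other 9 Acta2 features followed it closely: the 10 features correlated with r of 0.993 to 0.998 over 16 arrays. The sources used here do not say whether they share a probe sequence.

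Tagln, the gene of the actin-binding protein transgelin, had 11.07 and 11.43 in Fgf10+/- hyperoxia, against 9.90, 8.56, 8.92 and 8.24 in Fgf10+/- normoxia. It ran over 10.29, 11.48 and 11.97 in wild-type hyperoxia, against 12.78, 9.22, 9.39 and 8.85 in wild-type normoxia. The separation matched that of Acta2, with every hyperoxia array above 9.90 and wild-type normoxia replicate 1 above all. Myh11, the smooth muscle myosin heavy chain, had 6.66 and 6.10 in Fgf10+/- hyperoxia, against 5.03, 4.84, 5.12 and 5.35 in Fgf10+/- normoxia. It ran over 6.18, 6.72 and 7.63 in wild-type hyperoxia, against 7.65, 4.72, 5.14 and 4.73 in wild-type normoxia. Its 8 hyperoxia arrays lay at 6.10 or higher and 7 normoxia arrays at 5.35 or lower.

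Cnn1, which encodes the thin-filament protein calponin, overlapped between conditions in wild type. It had 7.57 and 7.21 in Fgf10+/- hyperoxia, against 7.17, 6.04, 6.56 and 5.70 in Fgf10+/- normoxia. It ran over 6.89, 8.06 and 8.86 in wild-type hyperoxia, against 9.56, 7.61, 6.75 and 6.28 in wild-type normoxia. Within wild type, normoxia replicate 2 alone, at 7.61, was above the lowest hyperoxia array once replicate 1 was left aside. Des, the muscle intermediate filament desmin, showed no separation, with 5.02 and 5.07 in Fgf10+/- hyperoxia against 4.96 to 5.91 in Fgf10+/- normoxia, and 4.88 to 5.79 in wild-type hyperoxia against 4.43 to 6.19 in wild-type normoxia. Its 10 features lay near the median of all values (means of 4.94 to 5.24) and correlated with each other with r of 0.11 to 0.86. Wild-type normoxia replicate 1 was the highest of 16 arrays on 10 of the 10 Des features.

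Mfap4, a glycoprotein of elastic fibres and the vessel wall, was the gene with the largest difference among the 10. It had 13.74 and 14.42 in Fgf10+/- hyperoxia, against 12.33, 10.04, 9.94 and 9.17 in Fgf10+/- normoxia. It ran over 12.96, 14.22 and 14.78 in wild-type hyperoxia, against 14.73, 11.10, 10.91 and 10.36 in wild-type normoxia. The hyperoxia arrays were all above the 7 normoxia arrays other than wild-type replicate 1, which fell inside the hyperoxia range. Eln, the elastin gene, did not follow Mfap4. It had 8.0 and 8.96 in Fgf10+/- hyperoxia, against 9.18, 9.57, 8.81 and 9.52 in Fgf10+/- normoxia, and ran over 8.72, 9.14 and 9.48 in wild-type hyperoxia, against 10.97, 9.71, 9.48 and 8.79 in wild-type normoxia. The groups overlapped in both genotypes.

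Inmt, indolethylamine N-methyltransferase, an enzyme known from rabbit and human lung, had 5.85 and 7.35 in Fgf10+/- hyperoxia, against 4.18, 4.59, 4.38 and 3.84 in Fgf10+/- normoxia. It ran over 6.02, 6.23 and 7.48 in wild-type hyperoxia, against 6.78, 4.72, 4.29 and 4.81 in wild-type normoxia. The normoxia arrays other than wild-type replicate 1 stayed at 4.81 or lower, close to the median of all values, and the lowest hyperoxia array was 5.85.

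Pdgfrb, the receptor that recruits pericytes, had 7.58 and 6.74 in Fgf10+/- hyperoxia, against 6.35, 6.09, 5.04 and 5.54 in Fgf10+/- normoxia. It ran over 6.34, 7.09 and 8.07 in wild-type hyperoxia, against 8.17, 6.00, 6.20 and 5.91 in wild-type normoxia. Within each genotype the conditions were apart once wild-type normoxia replicate 1 was set aside. Pdgfra, the receptor of the myofibroblast lineage, was dim, with 5.57 and 5.23 in Fgf10+/- hyperoxia against 5.19, 4.72, 4.54 and 4.60 in Fgf10+/- normoxia. It ran over 5.02, 5.32 and 5.47 in wild-type hyperoxia, against 6.35, 4.61, 4.73 and 4.61 in wild-type normoxia. Its 10 features correlated with r of 0.31 to 0.90, and their changes in Fgf10+/- ranged over 0.39 to 1.34. In wild type they ranged over -0.09 to 0.51 with all samples, and over 0.30 to 1.28 without normoxia replicate 1.

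The size of these differences was tested with limma over all 20725 genes with Benjamini-Hochberg adjustment, and calls below are those with an adjusted p under 0.05. In Fgf10+/-, Inmt was the 1 gene of the 10 called higher (1.18% of all genes were). Its log2 change was 2.35 (SE 0.58), a 5.09-fold difference with a limma adjusted p of 0.0441. With each of the 16 samples dropped in turn the call failed 12 times, with changes of 1.60 (adjusted p = 0.380) without Fgf10+/- hyperoxia replicate 2 and 3.10 (0.0705) without replicate 1. It held without wild-type normoxia replicate 1 or 3 and without wild-type hyperoxia replicate 1 or 4. Mfap4 had the largest change, 3.71 (95% interval 1.64 to 5.77), or 13.1-fold, and a limma adjusted p of 0.0559, which became 0.0340 without Fgf10+/- normoxia replicate 1 (4.36). Acta2 differed by 2.32 (0.49 to 4.14) and Tagln by 2.35 (0.65 to 4.05), with limma adjusted p of 0.182 and 0.146. Pdgfrb differed by 1.41, Myh11 by 1.30, Cnn1 by 1.03 and Pdgfra by 0.64, none past the threshold. Des differed by -0.29 and Eln by -0.79 (-1.77 to 0.19). The median change of the 10 genes was 1.35, against -0.04 over all genes, and 5 had an unadjusted p under 0.05 in the upward direction (7.35% of all genes).

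Wild-type normoxia replicate 1 entered that comparison only through the shared estimate of the spread. Without it the Fgf10+/- changes kept their values and 4 of the 10 genes were called higher (1.41% of all genes). These were Inmt (limma adjusted p = 0.0113), Mfap4 (0.00940), Tagln (0.0152) and Acta2 (0.0274).

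In wild type with all samples, 0 of the 10 genes were called by limma with Benjamini-Hochberg adjustment (1.77% of all genes were called higher and 1.36% lower), and 4 had an unadjusted p under 0.05 in the upward direction (7.41%). Mfap4 differed by 2.33 (0.79 to 3.87; limma adjusted p = 0.0951), Inmt by 1.33 (adjusted p = 0.113), Tagln by 1.33 (0.249) and Myh11 by 1.23 (0.165). Acta2 differed by 1.00 with an interval that held 0 (-0.36 to 2.36). Eln differed by -0.63 (-1.36 to 0.10). The median change was 0.79, against -0.08 over all genes.

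In wild-type hyperoxia 5 of the 10 genes were called higher once normoxia replicate 1 was left out (2.02% of all genes). Mfap4 rose by 3.32 on the log2 scale (SE 0.54), or 9.98-fold, with a limma adjusted p of 0.00376. Myh11 rose 3.79-fold (log2 change 1.92, limma adjusted p = 0.00192), Tagln 4.70-fold (2.23, 0.00400), Inmt 3.66-fold (1.87, 0.00824) and Acta2 3.85-fold (1.94, 0.0195). Pdgfra (0.62, adjusted p = 0.0881), Pdgfrb (1.12, 0.0948) and Cnn1 (1.10, 0.164) were positive and not called. Eln was at -0.21 and Des at 0.37. The median change was 1.50 in this fit. Leaving out any 1 of the other 15 samples instead called 0 of the 10 genes. With this array kept in, Mfap4 alone was called under 2 other settings, at 2.33 (limma adjusted p = 0.0467) where only genes with a mean of at least 6 were tested and at 2.45 (0.0417) with array weights.

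**Figure D2:**
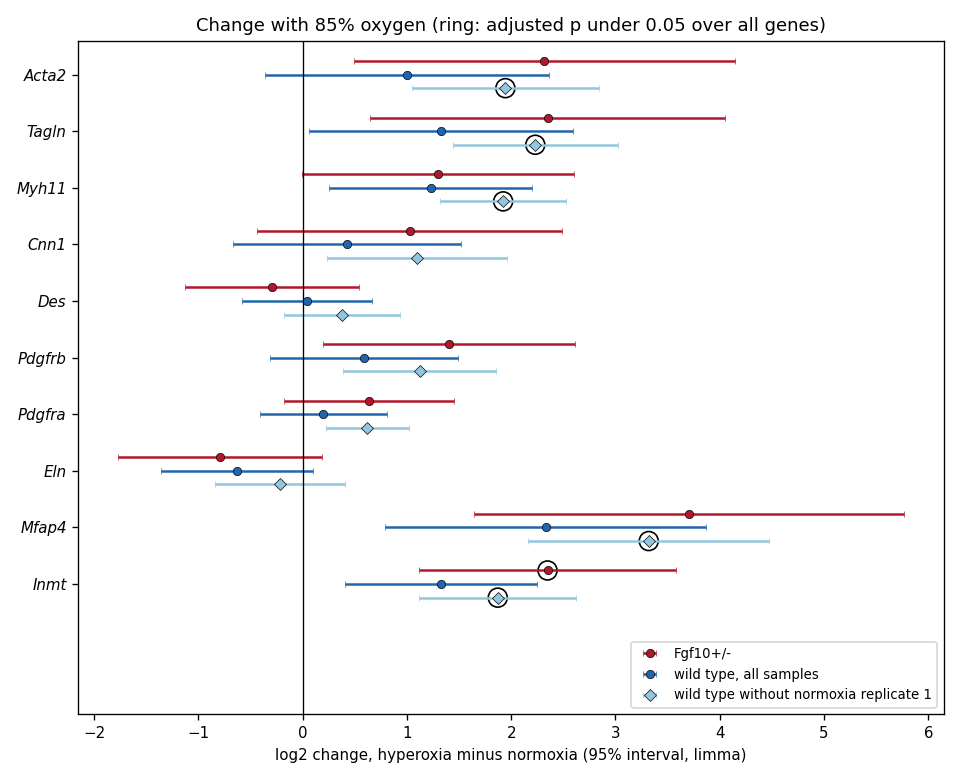
Log2 change, hyperoxia minus normoxia (x axis), with its 95% interval for each gene (y axis), in Fgf10+/-, in wild type with all samples, and in wild type without normoxia replicate 1. Rings mark a limma adjusted p under 0.05, held by Inmt in Fgf10+/- and by Acta2, Tagln, Myh11, Mfap4 and Inmt in wild type without replicate 1.

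Averaged over both genotypes, a contrast added after the data had been seen, 4 of the 10 genes were called higher in hyperoxia with all 16 samples (4.97% of all genes were). Mfap4 rose 8.11-fold (log2 change 3.02, SE 0.61, limma adjusted p = 0.00470) and remained past the threshold in all 16 fits that left out 1 sample, with adjusted p up to 0.0363. Inmt rose 3.58-fold (limma adjusted p = 0.00415) and passed in 15 of those 16 fits, all but that without Fgf10+/- hyperoxia replicate 2 (log2 change 1.46, adjusted p just above the threshold). Tagln rose 3.57-fold (limma adjusted p = 0.0266) and passed in 11, not without Fgf10+/- hyperoxia replicate 1 (1.93) or 2 (1.75), Fgf10+/- normoxia replicate 4 (1.73), or wild-type normoxia replicate 2 (1.70) or 4 (1.64). Myh11 rose 2.40-fold (limma adjusted p = 0.0436) and passed in 3, those without wild-type hyperoxia replicate 2 or 4 or wild-type normoxia replicate 1, with changes of 1.12 to 1.61 over the 16 fits. Acta2 differed by 1.66 (adjusted p = 0.0580) and Pdgfrb by 1.00 (0.0830). Eln had an unadjusted p of 0.0254 in the other direction (-0.71, 95% interval -1.32 to -0.10) with a limma adjusted p of 0.128. In the same contrast 8 of the 10 genes were called higher without wild-type normoxia replicate 1 (5.36% of all genes). These were the 4 above together with Acta2 (4.38-fold, limma adjusted p = 8.13e-04), Pdgfrb (2.40-fold, 0.00774), Pdgfra (1.55-fold, 0.0128) and Cnn1 (2.09-fold, 0.0438). Des (0.04) and Eln (-0.50, adjusted p = 0.183) were not.

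The genotypes were compared within each oxygen condition, using the same hyperoxia and normoxia samples as above. In hyperoxia 0 of the 10 genes differed between Fgf10+/- and wild type by limma (0% of all genes were called in either direction), and 0 had an unadjusted p under 0.05 (1.6% of all genes higher, 2.77% lower). Mfap4 averaged 14.08 ± 0.48 in Fgf10+/- (SD, n = 2) and 14.11 ± 0.69 in wild type (SD, n = 6), a difference of -0.03 with a 95% interval of -1.98 to 1.91. Acta2 averaged 11.12 ± 0.64 in Fgf10+/- and 11.20 ± 0.59 in wild type, a difference of -0.08 (-1.80 to 1.64). The lowest difference was that of Eln, at -0.63 (-1.56 to 0.29). The intervals are wide with 2 Fgf10+/- samples, and a p that misses the threshold does not show that the genotypes were alike.

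In normoxia, 1 of the 10 genes had a positive difference between Fgf10+/- and wild type with all samples (47.9% of all genes), and 3 had one without wild-type normoxia replicate 1 (47% of all genes). Again 0 were called by limma (0.00965% of all genes higher, 0% lower), and 0 had an unadjusted p under 0.05 (2.63% higher, 3.4% lower). Acta2 averaged 8.81 ± 0.92 in Fgf10+/- and 10.21 ± 1.91 in wild type (SD, n = 4 each), a difference of -1.40 (-2.89 to 0.09), and that of Mfap4 was -1.41 (-3.09 to 0.28). Without wild-type normoxia replicate 1 the wild-type mean of Acta2 was 9.26 ± 0.31 (SD, n = 3) and the differences were -0.45 for Acta2 and -0.42 for Mfap4. The median difference of the 10 genes was -0.86 with all samples and -0.27 without that array. The mean levels of 2 marker lists of other cells did not overlap between the same groups, and their part in it was not tested. The endothelial mean per array was 7.38 to 7.84 in Fgf10+/- normoxia against 8.20 to 8.65 in wild-type normoxia, with 0 of 10 genes positive (median -0.82, or -0.81 without replicate 1). The mesothelial mean was 9.80 to 10.42 in Fgf10+/- normoxia against 8.94 to 9.74 in wild-type normoxia, with 8 of 8 genes positive (median 0.60, and 7 of 8 with 0.59 without replicate 1). Neither list had a gene called by limma.

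The interaction, the hyperoxia change in Fgf10+/- minus that in wild type, was called for 0 of the 10 genes (0% of all genes higher, 0.00965% lower), and 0 had an unadjusted p under 0.05 (1.76% higher, 2.35% lower). It was 1.32 for Acta2 (-0.96 to 3.60), 1.37 for Mfap4 (-1.20 to 3.95) and 1.02 for Inmt (-0.52 to 2.56). Without wild-type normoxia replicate 1 these values were 0.37, 0.39 and 0.48, and the median over the 10 genes was 0.07 instead of 0.71. The larger changes in Fgf10+/- than in wild type with all samples were therefore not distinguishable from the spread, and they shrank with that array left out.

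How closely the genes moved together was described within each oxygen condition, so that the difference between conditions does not enter. Acta2, Tagln and Mfap4, picked out after the values were seen, varied closely together. Over the 8 hyperoxia arrays their r was 0.94 for Acta2 with Tagln, 0.95 for Acta2 with Mfap4 and 0.95 for Tagln with Mfap4, and over the 7 normoxia arrays other than wild-type replicate 1 these were 0.97, 0.96 and 0.96. Cnn1 joined them in normoxia (r of 0.81 to 0.88 with these 3) and not in hyperoxia (-0.05 to 0.13). Myh11 went with Pdgfrb in hyperoxia (0.86) and not in normoxia (-0.38), where it ran against Inmt (-0.94), both close to the median of all values there. Eln had r between -0.78 and 0.75 with the other 9 genes in hyperoxia and between -0.18 and 0.43 in normoxia. The arrays within a condition come from both genotypes and share the authors' normalization, and differences between such r values were not tested.

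**Figure D3:**
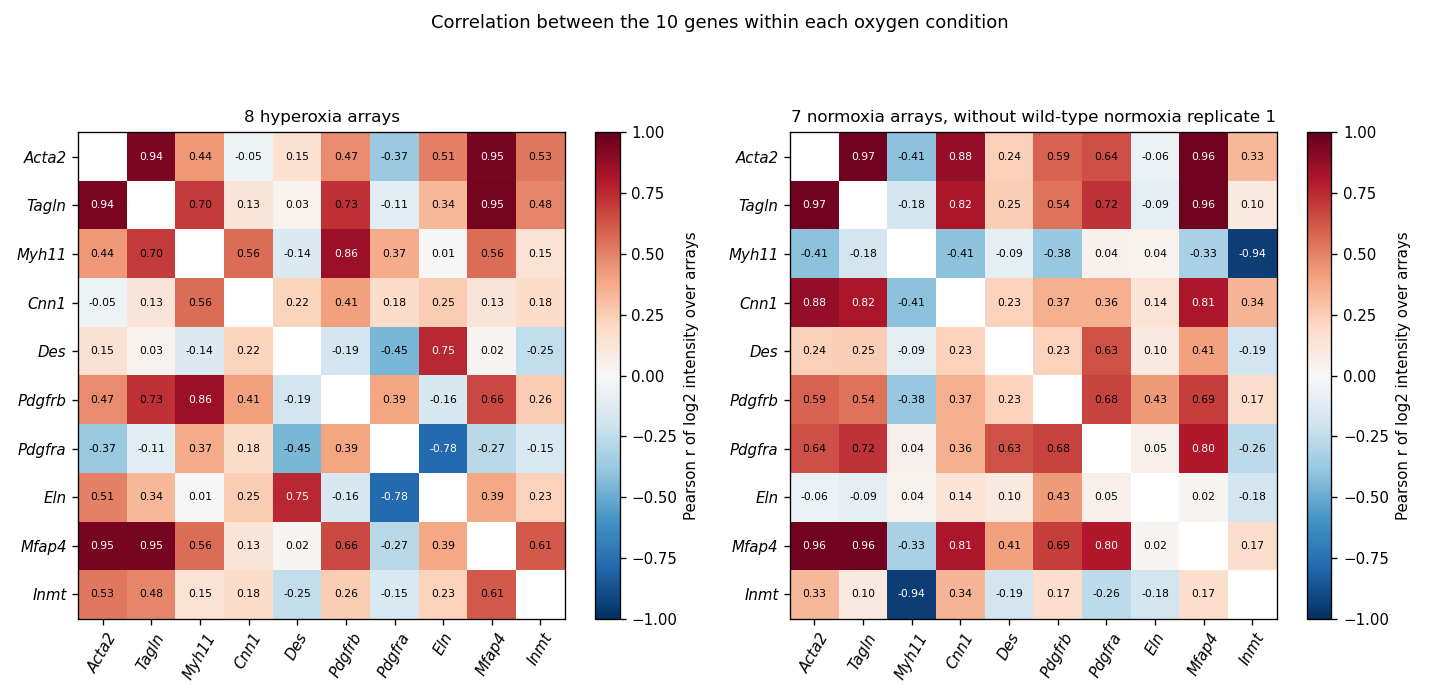
Pearson r of log2 intensity between each pair of the 10 genes, over the 8 hyperoxia arrays (left) and over 7 normoxia arrays without wild-type normoxia replicate 1 (right), with colour running from -1 to 1. Acta2, Tagln and Mfap4 have r of 0.94 to 0.97 with each other in both panels, while the pairs of Eln and Des show no common block.

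The genes most like the mean of the 10 were sought among 8004 genes with a mean of at least 6, over 15 arrays without wild-type normoxia replicate 1. Both oxygen conditions enter this likeness. The highest r were those of Slc38a5, an amino acid transporter (0.983), Ltbp2, a latent TGF-beta binding protein of the matrix (0.979), the septin gene Septin4 (0.974), the proteolipid gene Gpm6b (0.973), the alcohol dehydrogenase gene Adh1 (0.973), the kinase gene Dmpk (0.969), the GDNF family receptor gene Gfra2 (0.969) and the carbonic anhydrase gene Car2 (0.967). With all 16 arrays Ltbp2 (0.975), Gpm6b (0.975), Slc38a5 (0.974), Dmpk (0.968) and Gfra2 (0.967) were again among the first 8, joined by the fibronectin gene Fn1 (0.973), Pcolce2 (0.971) and the smooth muscle myosin light chain gene Myl9 (0.968). For single genes over 15 arrays, Acta2 was most like Adh1 (0.984) and Myl9 (0.982), Tagln like Slc38a5 (0.992) and Ppp1r14a (0.988), and Mfap4 like Slc38a5 (0.985) and Adh1 (0.984). Myh11 was most like Akap7 (0.965) and Pinx1 (0.964), and Cnn1 like Actg2, an enteric smooth muscle actin (0.931), and Vps9d1 (0.889). Pdgfrb was most like Plxnd1 and Gucy1a1 (both 0.939), Pdgfra like Pptc7 (0.941) and Hk1 (0.904), and Inmt like Arap3 (0.954) and Ushbp1 (0.953). Eln was most like Cpz (0.929) and the hyaluronan synthase gene Has1 (0.889), and Des like Podn (0.740) and Hnrnpll (0.729).

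Other genes of the same cells were read from fixed lists. Of 12 other smooth muscle genes, 9 had a positive change in Fgf10+/- (median 0.77), where 46.6% of all genes did. In wild type 9 did (median 0.50), where 41.7% of all genes did. Without normoxia replicate 1 there were 10 in wild type (median 0.74), against 41.9% of all genes. With all samples 0 were called in either genotype. Myl9 differed by 1.91 in Fgf10+/- (limma adjusted p = 0.188) and by 0.88 in wild type (0.416). Without wild-type normoxia replicate 1, 4 were called higher in wild type (2.02% of all genes). Among them were Ppp1r14a, an inhibitor of myosin phosphatase (2.30, limma adjusted p = 0.00534), the tropomyosin gene Tpm2 (1.70, 0.00744) and Myl9 (1.65, 0.0240). In that fit 2 were called higher in Fgf10+/- (1.41% of all genes), Ppp1r14a (2.77, limma adjusted p = 0.00907) and Myl9 (1.91, 0.0362). Averaged over genotypes with all samples, Ppp1r14a (2.12, limma adjusted p = 0.00941) and the tropomyosin gene Tpm1 (0.74, 0.0115) rose. Ppp1r14a had 8.66 and 9.06 in Fgf10+/- hyperoxia against 5.46 to 6.89 in Fgf10+/- normoxia.

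Of 10 regulators of contractile and lung mesenchymal genes 0 were called with all samples within either genotype, and the median change was 0.51 in Fgf10+/- and 0.02 in wild type (0.15 without normoxia replicate 1). Averaged over genotypes with all samples, Tbx5, a transcription factor gene of the lung mesenchyme, rose (1.67, limma adjusted p = 0.00990). Srf differed by -0.10 in Fgf10+/- (limma adjusted p = 0.893) and by -0.17 in wild type (0.714), while Mrtfa, a myocardin-related cofactor, differed by -0.10 (0.881) and 0.04 (0.934). Within genotypes, Tbx5 was called without wild-type normoxia replicate 1 in Fgf10+/- (1.93, limma adjusted p = 0.0350), and Tbx5 (1.97, 0.00829) and Tbx4 (1.84, 0.0170) in wild type.

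All 10 pericyte genes had a positive change in both genotypes, with medians of 1.02 in Fgf10+/- and 0.65 in wild type (0.97 without normoxia replicate 1), where 46.6% and 41.7% of all genes were positive. In wild type the cation channel gene Trpc6 rose by 1.40 on the log2 scale with all samples (SE 0.28, limma adjusted p = 0.00964), with 5.77 to 7.0 in hyperoxia against 4.43 to 5.85 in normoxia. Without wild-type normoxia replicate 1 Trpc6 was at 1.66 (limma adjusted p = 0.00376), and Cspg4, which encodes the NG2 proteoglycan of pericytes, was called as well (1.37, limma adjusted p = 0.0200). In Fgf10+/- 0 were called with all samples. Higd1b, a marker of lung pericytes, differed by 2.40 there (limma adjusted p = 0.0672, or 0.0387 without that array). Without that array 2 were called in Fgf10+/-, Higd1b and Ndufa4l2 (1.80, limma adjusted p = 0.0429). Higd1b had 9.88 and 10.21 in Fgf10+/- hyperoxia against 6.79 to 8.92 in Fgf10+/- normoxia. Averaged over genotypes with all samples, Higd1b (1.87, limma adjusted p = 0.00818), Trpc6 (1.05, 0.00877) and Ndufa4l2 (1.18, 0.0419) rose. The PDGF ligand genes, of which 4 were measured, had 0 calls in either genotype, with medians of 0.26 in Fgf10+/- and 0.33 in wild type (0.30 without normoxia replicate 1). Pdgfb, the ligand of PDGF receptor beta, differed by 0.22 in Fgf10+/- (limma adjusted p = 0.843) and 0.70 in wild type (0.219).

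Of 16 fibroblast genes 8 were positive in Fgf10+/- (median 0.09) and 11 in wild type (median 0.26), with 0 called. Over all genes 46.6% and 41.7% were positive. Without normoxia replicate 1, 15 of the 16 were positive in wild type (median 0.66), where 41.9% of all genes were. The collagen gene Col1a2 differed by -0.12 in Fgf10+/- (limma adjusted p = 0.950) and by 0.47 in wild type (0.629), or 1.04 (0.121) without that array. Averaged over genotypes with all samples, Tcf21, a transcription factor of lung fibroblasts, rose (1.75, limma adjusted p = 0.0278). Within genotypes, Tcf21 was called higher without wild-type normoxia replicate 1 in Fgf10+/- (2.22, limma adjusted p = 0.0233), where the proteoglycan gene Dcn was called lower (-1.60, 0.0330). In wild type 4 were called higher in that fit (2.02% of all genes), led by Tcf21 (2.12, limma adjusted p = 0.00740) and Dpt (1.73, 0.00902). Among 12 genes of elastic fibre assembly 0 were called in either genotype with all samples, with medians of 0.07 in Fgf10+/- and -0.01 in wild type. Without normoxia replicate 1 the wild-type median was 0.27 and Ltbp2 was called (1.85, limma adjusted p = 0.0159). Fbln5, which links elastin to cells, differed by -0.19 in Fgf10+/- (limma adjusted p = 0.816) and by -0.42 in wild type (0.367). Averaged over genotypes Ltbp2 rose (1.46, limma adjusted p = 0.0362), and Fbln2 (-0.96, 0.00548) and the elastin cross-linking enzyme gene Lox (-0.72, 0.0302) fell.

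Markers of other cells moved beside these genes, and their part in the results was not tested. All 10 endothelial genes had a positive change in both genotypes, with a median of 1.14 in Fgf10+/- and 0.46 in wild type (0.44 without normoxia replicate 1). Over all genes 46.6% had a positive change in Fgf10+/- and 41.7% in wild type (41.9% without normoxia replicate 1). In Fgf10+/- 3 endothelial genes were called higher (1.18% of all genes), Egfl7 (2.46, limma adjusted p = 0.00714), Cldn5 (2.08, 0.0174) and Ramp2 (1.71, 0.0421). In wild type 0 of them passed, with Egfl7 at 1.06 (limma adjusted p = 0.0776). The endothelial mean per array was 8.26 and 9.51 in Fgf10+/- hyperoxia against 7.38 to 7.84 in Fgf10+/- normoxia, and 8.33 to 9.50 in wild-type hyperoxia against 8.20 to 8.65 in wild-type normoxia. Of 10 macrophage genes 8 were positive in Fgf10+/- (median 0.30) and 6 in wild type (median 0.15, and 7 with 0.31 without normoxia replicate 1). The integrin gene Itgam was the 1 called higher within each genotype, with 3.41 in Fgf10+/- (limma adjusted p = 0.00384) and 3.73 in wild type (7.90e-05). Of 12 AT2 genes 2 were positive in each genotype and 0 were called, with medians of -0.35 in Fgf10+/- and -0.47 in wild type (-0.49 without normoxia replicate 1). Averaged over genotypes with all samples, 4 of the 10 endothelial and 2 of the 10 macrophage genes were called higher (4.97% of all genes), and 0 of the AT2 genes were called.

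Within genotypes, genes of the remaining lists were called lower or not at all. Of 8 mesothelial genes 2 were called lower in Fgf10+/-, Upk1b (-1.84, limma adjusted p = 0.0233) and Rspo1 (-1.39, 0.0433), and 0 were called in wild type (median -0.36, or -0.37 without normoxia replicate 1). Of 8 cardiac muscle genes Myl4 fell in Fgf10+/- (-2.02, limma adjusted p = 0.0481) and Myl7 in wild type (-1.38, 0.0181). Of these 8 genes 1 was positive in Fgf10+/- (median -0.95) and 2 in wild type (median -0.49, and 3 with -0.23 without normoxia replicate 1). Of 8 cartilage genes Chad fell in both, by 3.21 in Fgf10+/- (limma adjusted p = 0.0262) and by 2.27 in wild type (0.0259). The cartilage medians were -0.36 in Fgf10+/- and -0.22 in wild type (-0.26 without normoxia replicate 1). Among 8 skeletal muscle genes, 5 measured erythroid genes and 10 thymocyte genes 0 were called in either genotype, with medians of -0.09, 0.49 and -1.09 in Fgf10+/- and -0.03, 0.59 and -0.70 in wild type. Without normoxia replicate 1 the wild-type medians were 0.19, 0.94 and -0.81. Averaged over genotypes with all samples, 3 mesothelial, 3 cardiac muscle, 1 cartilage and 2 thymocyte genes were called lower. Without wild-type normoxia replicate 1 these counts were 3, 2, 1 and 1. The share of all genes called lower is not given here for that contrast or for Fgf10+/-, so these counts stand without it. In that contrast 1 cardiac muscle gene was called higher with all samples and 0 without wild-type normoxia replicate 1. In both fits 0 skeletal muscle or erythroid genes were called.

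**Figure D4:**
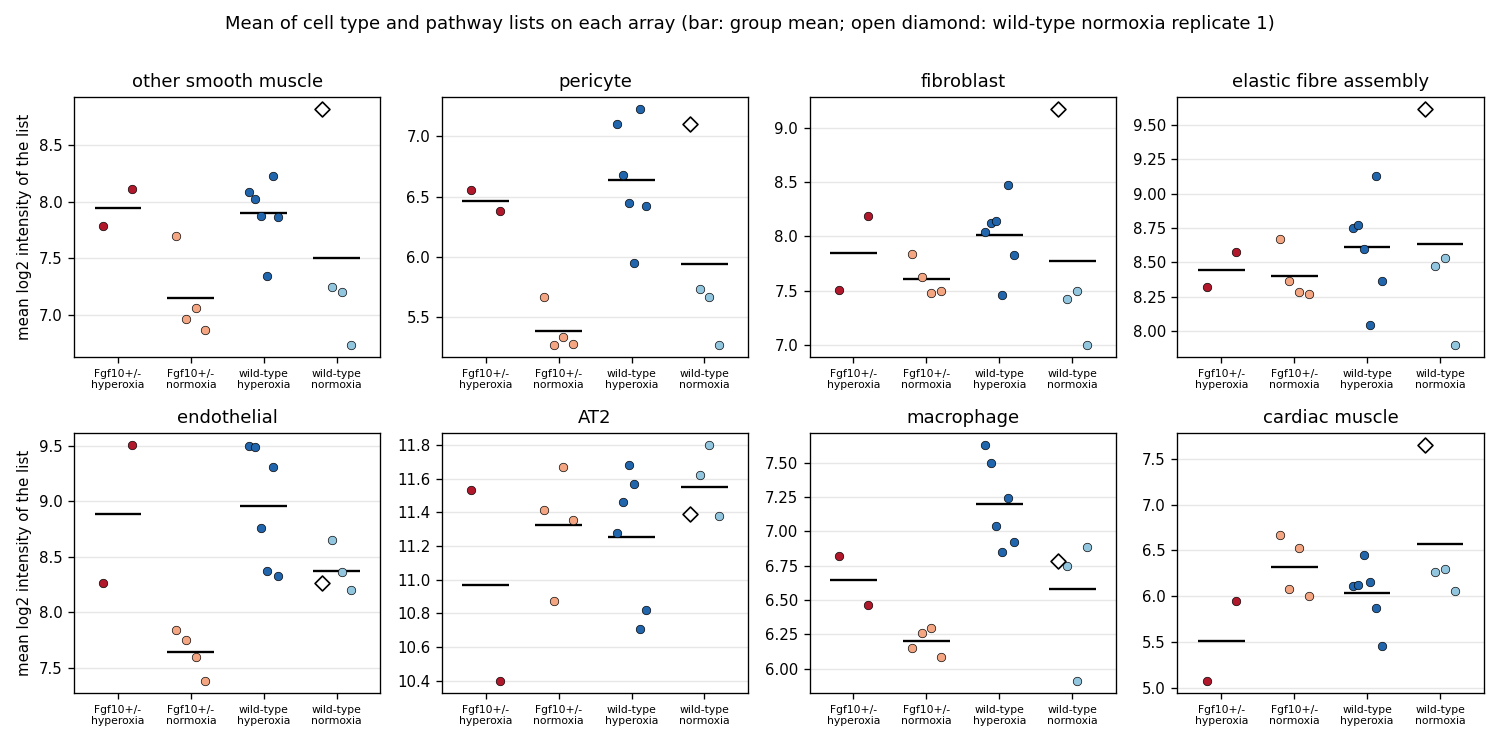
Mean log2 intensity per array (y axis) of 8 marker lists (1 panel each) in the 4 groups, with a bar at each group mean and an open diamond for wild-type normoxia replicate 1. That diamond is the highest point of its group for other smooth muscle (8.82), pericyte (7.11), fibroblast (9.17), elastic fibre (9.61) and cardiac muscle (7.66) genes, and within the range of its group for AT2 (11.39) and endothelial (8.26) genes.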

How the data were processed

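The authors deposited 1 log2 intensity per feature and array, and the log base was inferred from the values (-0.396 to 15.98). At any rank the 16 arrays lay within 0.204 of each other, so the deposited values had been brought to a shared distribution. The sources used here give no software, background correction, slide or detection flag, and features near background show only as low values. Precision is limited by the number of arrays.

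Of 62976 features, 65 with a missing value were dropped, and 31439 had 1 gene symbol, updated through RefSeq tables. The 16 samples were fitted by group mean in R 4.3.3 with limma 3.58.1 (lmFit and eBayes), with Benjamini-Hochberg adjustment over 20725 genes. The script was tested on simulated data. All 10 genes were named, from each list up to 3 called genes or else the 2 brightest, and the genes of highest Pearson r. The Acta2, Tagln and Mfap4 trio and the levels of list genes were chosen after their values were seen. The genes and lists were chosen with earlier results of these data known, and the thymocyte list after the data had been seen.

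Alternatives were features averaged per gene, a filter on dim genes, median centring, array weights, a variance trend, a fit of only the compared groups, a thymocyte covariate, a replicate block and each sample left out.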

Additional observations from a re-analysis of the deposited data

Results flagged for a closer look

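Wild-type normoxia replicate 1 lay far from the other 3 samples of its group for 6 of the 10 genes. Its gap to the nearest sample took 0.859 of the group's range for Acta2 (13.05), 0.862 for Tagln (12.78), 0.857 for Myh11 (7.65), 0.872 for Pdgfrb (8.17), 0.928 for Pdgfra (6.35) and 0.831 for Mfap4 (14.73), each above Dixon's 95% critical value for 4 samples. Altogether 30 groups of 4 to 6 samples were examined and these 6 stood out. Chance flags about 1 in 20 groups, but that rate is no yardstick here, because the array had already been set apart by its level on these genes. The 6 values restate that choice and come from 1 array and from genes that vary together.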

How the results depend on the processing

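Leaving out 1 sample gave 0 to 5 called genes of the 10 in wild type (5 without normoxia replicate 1), 0 to 4 in Fgf10+/-, 1 to 8 averaged over genotypes, and 0 for the genotype comparisons and the interaction. Wild type had 0 calls with all samples, and 1 with a filter on dim genes, 1 with array weights and 4 without normoxia replicates 1 and 4. Fgf10+/- had 1, and 0 with all features averaged, the replicate block or the thymocyte covariate. It had 2 with array weights or a variance trend, and 4 without wild-type normoxia replicates 1 and 4. The averaged contrast had 4, and 2 with the replicate block. The cause of these shifts was not tested.

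Median changes ranged over 0.47 to 1.50 in wild type, 1.00 to 1.59 in Fgf10+/-, 0.96 to 1.44 averaged, -1.06 to -0.27 between genotypes in normoxia, -0.34 to 0.0034 in hyperoxia and 0.07 to 1.03 for the interaction with 1 sample left out. The Fgf10+/- median was 0.98 with the replicate block, and the genotype median in hyperoxia was -0.56 with the block. Without the 4 libraries highest in thymocyte markers the Fgf10+/- median was 1.69. Those were Fgf10+/- normoxia replicates 1, 2 and 4 and wild-type normoxia replicate 4. Only replicate 3 was then left in Fgf10+/- normoxia. Of 18 same-numbered pairs of samples 4 had a correlation over 0.1 (median 0.03), so the numbers were not taken to pair samples.

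Of the results for single genes, 447 kept direction and side of the threshold under settings other than leaving out 1 sample, 12 came to pass, 6 no longer passed and 20 changed sign. Des changed sign in wild type (-0.032 with features averaged, -0.051 without the thymocyte libraries), in Fgf10+/- (0.090 without them) and between genotypes in normoxia (-0.21 and -0.35). Without the thymocyte libraries, replicate 3 alone stood for Fgf10+/- normoxia. Without wild-type normoxia replicates 1 and 4, Myh11 was 0.15 and Pdgfra 0.090 between genotypes in normoxia. Between genotypes in hyperoxia, Pdgfrb was 0.018 with median centring and 0.080 with array weights, Mfap4 0.030 with array weights, Pdgfra -0.086 with features averaged and -0.069 with the block, and Inmt -0.47 with the block. For the interaction, Myh11 was -0.086 with the block, -0.11 with array weights, -0.030 with the thymocyte covariate and -0.56 without the 2 normoxia replicates, Cnn1 was -0.078 with the block, and Des was 0.14 and Eln 0.61 without the thymocyte libraries. With 1 sample left out, sign changes lay within -0.21 to 0.37 for Des in wild type and -0.25 to 0.042 averaged. In normoxia they lay within -0.13 to 0.46 for Des, -0.75 to 0.22 for Myh11 and -0.47 to 0.11 for Pdgfra. In hyperoxia they lay within -0.53 to 0.38 for Acta2, -0.35 to 0.047 for Tagln, -0.42 to 0.42 for Pdgfrb, -0.044 to 0.30 for Pdgfra, -0.37 to 0.31 for Mfap4 and -0.63 to 0.87 for Inmt. For the interaction they lay within -0.62 to 0.35 for Myh11, -0.071 to 1.02 for Cnn1 and -0.65 to 0.31 for Eln. Without detection flags, a gene near background, such as Des or Pdgfra, has no measured lower limit.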
